A study of Caenorhabditis elegans with 36 samples.

Results

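The endoderm and mesendoderm regulators of the nematode C. elegans described here are the transcription factor genes skn-1, med-1, med-2, end-1, end-3, elt-2, elt-7 and pal-1. They were taken by name, without regard to their values, as 8 of the 46926 genes listed in each deposited table of poly(A) RNA counts. In the early embryo, maternally supplied SKN-1 protein turns on the small GATA-type factors MED-1 and MED-2 in the mesendoderm precursor, and these, together with a Wnt signal that acts through the factor POP-1, turn on the GATA factors END-1 and END-3 in the endoderm precursor. END-1 and END-3 turn on ELT-7 and ELT-2, and ELT-2 keeps intestinal genes active for the rest of the animal's life. PAL-1, the Caudal homologue, is also made from maternal mRNA and specifies the posterior C and D lineages, while SKN-1 has a later role in the intestine, where it drives detoxification genes.

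RNA came from whole animals at 3 stages, in 8 groups of 3 libraries, which the labels number as biological replicates. Embryos were obtained by hypochlorite treatment of adults grown at 20 °C, and L1 larvae (first larval stage) were such embryos kept in M9 buffer at 20 °C for about 11 h. Both stages had a group of N2, the wild-type strain, and a group labelled xnp1. L4 larvae (last larval stage) grew from L1 at 25 °C in 4 groups: N2, the single mutants of xnp-1 and of gsox-1, and the xnp-1;gsox-1 double mutant, as the design text calls these backgrounds. The protein made from xnp-1 is the C. elegans counterpart of ATRX, a remodeller of chromatin. The labels give xnp1 as a genotype in embryos and L1 larvae while the design text calls those animals a knockdown, and neither alleles nor the age of the embryos are given in the sources used here. Embryo and L1 libraries were sequenced at the Oxford Genomics Centre and L4 libraries at Novogene, so the L4 data were tested apart and are not compared directly with the other stages.

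Totals ran from 29896459 to 41520291 counted fragments per library in embryos and L1 larvae and from 39004451 to 45391494 counted reads at L4. xnp-1 was lower in xnp-1 embryos than in N2 (log2 change -1.61, SE 0.136, adjusted p = 5.98e-05, edgeR quasi-likelihood test) and lower in xnp-1 L4 larvae (-0.72, SE 0.206, adjusted p = 0.0131, edgeR), while in L1 larvae the change of -0.55 (SE 0.134) missed the threshold (adjusted p = 0.135, edgeR). gsox-1 was not lower in the libraries labelled gsox-1, at 78.5 ± 3.55 CPM (SD, n = 3) against 56.9 ± 12.7 CPM in N2, so RNA level does not check that label. CPM gives the reads or fragments of a gene relative to its library's total, after TMM scaling. The summed level of 18 early zygotic genes, a sign of young embryos, was 555.8 to 1210 CPM in embryos, 63.2 to 238.3 CPM in L1 larvae and 3.21 to 44.0 CPM at L4.

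The regulators lie on 4 chromosomes in the assembly WBcel235 that the deposited tables use. skn-1 (WBGene00004804) spans chromosome IV, 5651039 to 5660384, on the minus strand and pal-1 (WBGene00003912) chromosome III, 4804688 to 4809576, on the minus strand. med-1 (WBGene00003180; X, 12430609 to 12431133) and med-2 (WBGene00003181; III, 6884503 to 6885027) are near-identical copies with the same exon length of 525 bases. Reads that map to both were not counted, so the counts of both are uncertain. end-1 (WBGene00001310; V, 13985128 to 13987074) and end-3 (WBGene00001311; V, 14014695 to 14015980) lie 27621 bases apart on the plus strand with 4 listed genes between them. elt-7 (WBGene00015981) is on V, 4770670 to 4773086, and elt-2 (WBGene00001250) on X, 10481240 to 10483441, both on the plus strand. skn-1 overlaps T19E7.27 on the same strand, so reads of the shared part cannot be assigned to either with certainty.

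Per kilobase of exon, skn-1 and pal-1 led in N2 embryos and end-1, end-3, med-2 and med-1 stood lowest. These counts do not separate maternal from zygotic RNA. skn-1 was at 103 ± 17.2 CPM per kb (SD, n = 3, as for all levels here), pal-1 at 51.6 ± 0.71, elt-2 at 26.3 ± 2.34 and elt-7 at 17.55 ± 0.65. end-1 followed at 8.40 ± 0.25 CPM per kb, end-3 at 1.48 ± 0.21, med-2 at 0.58 ± 0.31 and med-1 at 0.33 ± 0.17. In this order of levels the spreads overlapped only between med-2 and med-1. In N2 L1 larvae skn-1 was again highest at 96.4 ± 16.5 CPM per kb, and pal-1 at 22.2 ± 8.14 and elt-2 at 19.8 ± 2.69 overlapped in spread. elt-7 stood at 12.4 ± 1.20 CPM per kb, and end-1 at 2.02 ± 1.28, med-2 at 1.28 ± 0.45 and end-3 at 0.92 ± 0.41 overlapped, with med-1 lowest at 0.26 ± 0.20. The early zygotic genes still summed to 63.2 to 221.9 CPM in these N2 L1 libraries. The part of younger animals in the L1 levels was not tested.

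At L4 the order differed between groups. In N2 it ran from skn-1 at 34.1 ± 15.2 CPM per kb through elt-2 at 28.4 ± 1.82 and elt-7 at 14.2 ± 4.43 to pal-1 at 7.27 ± 0.67, with the spreads of skn-1 and elt-2 overlapping. Double mutants and gsox-1 larvae had the same order, with pal-1 at 6.85 ± 0.44 and 6.52 ± 0.60 CPM per kb and elt-7 at 10.15 ± 1.90 and 10.4 ± 1.97. In xnp-1 larvae pal-1 stood second at 64.2 ± 7.30 CPM per kb, overlapping in spread with skn-1 at 69.4 ± 8.63 and above elt-2 at 18.5 ± 2.05 and elt-7 at 7.78 ± 1.00. med-1, med-2, end-1 and end-3 had means at or under 0.354 CPM per kb in all 4 L4 groups.

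**Figure D1:**
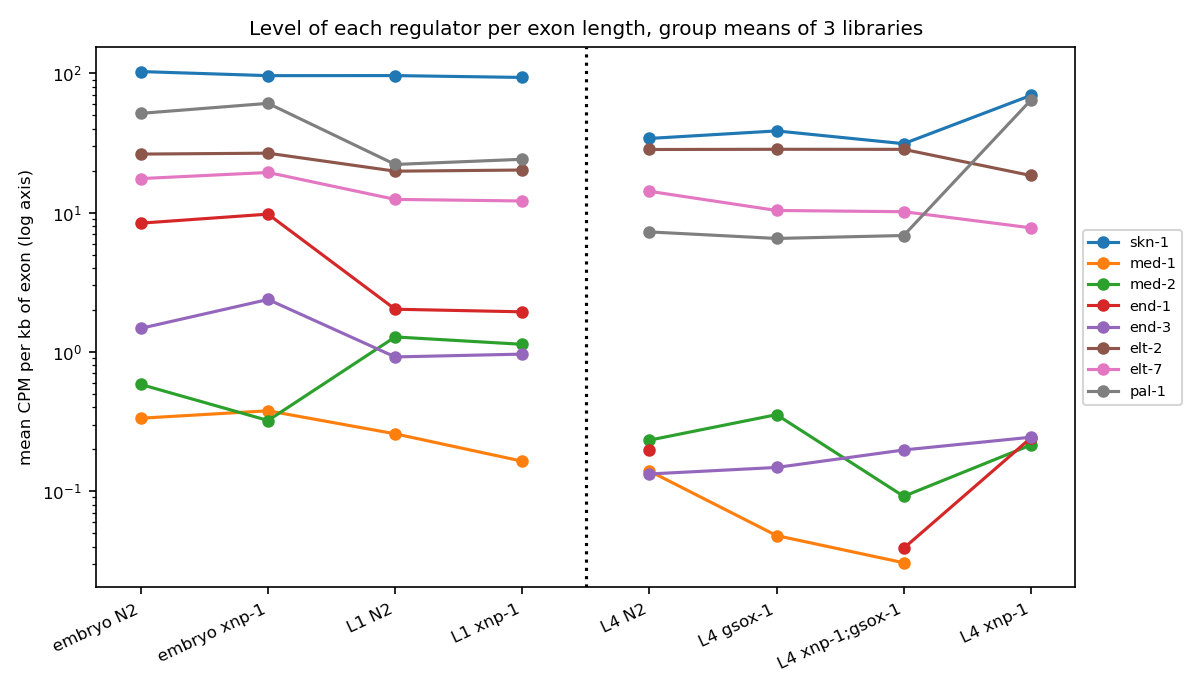
Mean level of each regulator in CPM per kilobase of exon (vertical axis, logarithmic) in the 8 groups (horizontal axis), 3 libraries per group. The dotted line separates the tables, which were scaled apart, and groups with 0 counts (end-1 in gsox-1, med-1 in xnp-1, both at L4) have no point. pal-1 lies below elt-2 in N2 L4 larvae (7.27 against 28.4) and above it in xnp-1 L4 larvae (64.2 against 18.5).

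The first comparison asked whether the regulators differed between xnp-1 and N2 embryos. All but med-1 had enough counts to be tested, and 0 of 7 passed an adjusted p under 0.05 by edgeR, where 1.11% of all 17687 genes tested passed (0.43% higher and 0.684% lower). At an unadjusted p under 0.05 there were also 0 of 7, against 2095 of all genes, and DESeq2 called 0. skn-1 had 269.7, 363.5 and 281.9 CPM in N2 embryos (replicates 1 to 3) and 267.9, 296.5 and 290.4 CPM in xnp-1 embryos. The groups overlapped (log2 change -0.10, SE 0.162). pal-1 had 77.2, 75.2 and 76.75 CPM in N2 and 125.8, 72.45 and 72.1 CPM in xnp-1 embryos. Replicate 1 of xnp-1 stood above every other embryo library and its other replicates just below N2, with a log2 change of 0.24 (SE 0.297) that turned to -0.10 (SE 0.292) without that library.

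end-1, end-3 and elt-7 had their highest embryo values in the same xnp-1 library, while med-2 and elt-2 were highest in N2 replicate 3. end-1 was at 6.49, 6.13 and 6.25 CPM in N2 embryos and 9.74, 5.32 and 6.85 CPM in xnp-1 embryos (log2 change 0.21, SE 0.537, and -0.07, SE 0.624, without replicate 1). end-3 was at 1.44, 1.074 and 1.32 CPM in N2 and 3.30, 1.48 and 1.39 CPM in xnp-1 embryos, so that the groups overlapped, as they did for end-1. Its log2 change of 0.68 (SE 0.452), the most positive of the regulators here, became 0.14 (SE 0.446) without replicate 1. The early zygotic genes moved with this library: their sum was 1210 CPM in it, 616.3 and 617 CPM in the other xnp-1 embryo libraries and 555.8, 618 and 664.3 CPM in N2. The part of embryo age in these values was not tested.

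The intestinal factors differed little in embryos. elt-7 was at 14.5, 15.4 and 14.4 CPM in N2 and 19.3, 14.7 and 14.9 CPM in xnp-1 embryos (log2 change 0.15, SE 0.192, and -0.01, SE 0.186, without replicate 1). elt-2 was at 37.6, 40.6 and 44.9 CPM in N2 and 43.5, 42.2 and 39.1 CPM in xnp-1 embryos, with overlapping groups (0.02, SE 0.149). med-2 rested on 14, 4 and 13 fragments in N2 embryos and 7, 1 and 11 in xnp-1 embryos, which leaves its log2 change of -0.85 with an SE of 0.715. med-1 had 5, 4 and 8 fragments in N2 and 12, 6 and 4 in xnp-1 embryos.

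In L1 larvae, too, 0 of 7 regulators passed between xnp-1 and N2, where 0.481% of all genes passed by edgeR (0.362% higher and 0.119% lower). At an unadjusted p under 0.05 there were 0 of 7, against 1183 of all genes, and DESeq2 called 0. pal-1 was at 19.2, 37.0 and 42.2 CPM in N2 L1 larvae and 25.4, 37.5 and 44.4 CPM in xnp-1 L1 larvae. end-1 was at 0.47, 1.71 and 2.37 CPM in N2 and 0.38, 1.51 and 2.47 CPM in xnp-1 L1 larvae. Replicate 1 was lowest in both groups for both genes, and the libraries of equal number lay close together. The early zygotic sum followed, at 63.2, 221.9 and 219.9 CPM in N2 and 101.2, 224.4 and 238.3 CPM in xnp-1 L1 larvae. The log2 changes were 0.12 (SE 0.298) for pal-1 and -0.06 (SE 0.573) for end-1. The other tested regulators, skn-1, med-2, end-3, elt-2 and elt-7, had changes between -0.18 and 0.07, with overlapping groups in every case.

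The difference between the xnp-1 effects of L1 larvae and embryos was tested in the same model. It passed for 0 of 7 regulators and for 0% of all genes by edgeR. At an unadjusted p under 0.05 there were 0 of 7, against 454 of all genes, and DESeq2 called 0 regulators and 9 genes in all. The estimates for the regulators ran from -0.61 (SE 0.656) for end-3 to 0.67 (SE 0.922) for med-2. The SEs of the low-count med-2, end-1 and end-3 exceeded 0.6. xnp-1 itself, at 1.06 (SE 0.189), did not pass (adjusted p = 0.747, edgeR). Every regulator had a larger SE than xnp-1, so differences of that size could have been missed for all of them.

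**Figure D2:**
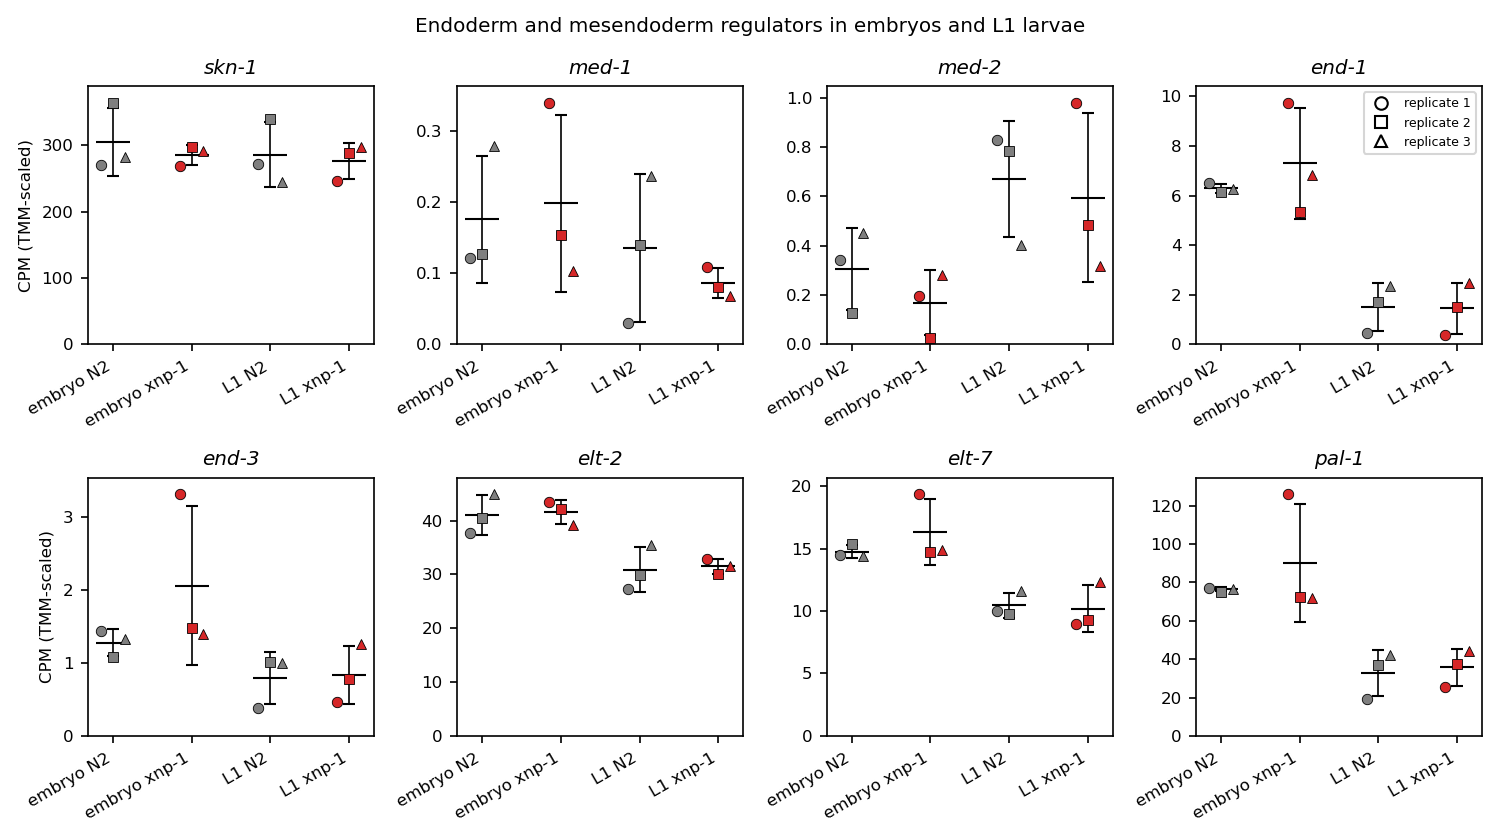
Level of each regulator in CPM (vertical axes, linear) in the 12 embryo and L1 libraries. Points are libraries with the replicate number as the symbol, and bars are means with SD (n = 3). For pal-1, end-1, end-3 and elt-7, replicate 1 of the xnp-1 embryos is the highest library (125.8, 9.74, 3.30 and 19.3), and the L1 values of pal-1, end-1 and elt-7 all lie below the embryo values.

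Between N2 embryos and N2 L1 larvae, 4 of 7 regulators fell and 0 rose, where 59.5% of all genes passed by edgeR (34.3% higher and 25.2% lower). end-1 fell most, from 6.29 ± 0.18 to 1.52 ± 0.96 CPM (log2 change -2.04, SE 0.571, adjusted p = 0.00952, edgeR). pal-1 fell from 76.4 ± 1.05 to 32.8 ± 12.1 CPM (-1.22, SE 0.302, adjusted p = 0.00519, edgeR). The 3 L1 libraries of each lay below all 3 embryo libraries. Without replicate 1 of both L1 groups the changes were -1.61 (adjusted p = 0.00115) and -0.94 (adjusted p = 0.00521, edgeR).

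elt-2 fell from 41.01 ± 3.65 to 30.9 ± 4.19 CPM (-0.41, SE 0.149, adjusted p = 0.032, edgeR) and elt-7 from 14.8 ± 0.54 to 10.5 ± 1.01 CPM (-0.50, SE 0.193, adjusted p = 0.0411, edgeR), again with no overlap between stages. Both calls were lost when the libraries were scaled by their totals alone (adjusted p = 0.109 and 0.1, edgeR), and in 5 of the 6 fits that left out 1 of the N2 libraries. skn-1 was at 305 ± 51.01 CPM in embryos and 285.3 ± 48.9 CPM in L1 larvae, with overlapping libraries (-0.10, SE 0.162). end-3 was at 1.28 ± 0.18 CPM in embryos and 0.80 ± 0.36 CPM in L1 larvae (-0.67, SE 0.469), and med-2 at 0.31 ± 0.17 and 0.67 ± 0.24 CPM (1.12, SE 0.633), neither passing the test. In these whole-animal samples fewer cells of a type and less RNA per cell cannot be told apart.

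Other genes of the pathway were read from lists written with results of these data known. Of 13 maternal regulators of blastomere fate, 13 fell from N2 embryos to L1 larvae and 0 rose, where 25.2% of all genes were lower. The median log2 change of this list was -1.21, against 0.10 over all genes. Among the 13 were glp-1, a Notch receptor (-1.46, SE 0.315, adjusted p = 0.00246), and pos-1, an RNA-binding protein (-1.40, SE 0.337, adjusted p = 0.00439, edgeR). Of 16 genes of the Wnt, MAPK and Src inputs to endoderm 14 fell, including lit-1, the kinase that acts on POP-1 (-0.91, SE 0.193, adjusted p = 0.00212, edgeR). Of 17 mesoderm and C-lineage targets 14 fell, with vab-7, a homeobox gene downstream of PAL-1, at -1.065 (SE 0.222, adjusted p = 0.00199, edgeR). Scaling by library totals left 9 of these 17 as lower, where 3391 of all genes were lower, against 4460 in the main fit. Of the 5 other GATA factors 4 fell and 0 rose. All 18 early zygotic genes tested fell (median -1.98), as did 11 of 13 oocyte and eggshell genes. Of the latter, 7 were lower by library totals and 6 without replicate 1 of both L1 groups, where 3438 of all genes were lower.

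Of 20 intestinal differentiation genes 10 rose and 2 fell in L1 larvae (median 0.63), where 34.3% of all genes were higher and 25.2% lower. The ferritin gene ftn-1 rose from 2.91 ± 0.87 to 30.9 ± 3.61 CPM (3.40, SE 0.258, adjusted p = 2.06e-06, edgeR) and the metallothionein gene mtl-1 from 0.70 ± 0.29 to 31.8 ± 19.1 CPM (5.47, SE 0.554, adjusted p = 1.37e-05, edgeR). Of 9 detoxification targets of SKN-1, 7 rose and 1 fell, among them gcs-1, which encodes the catalytic subunit of the first enzyme of glutathione synthesis (1.068, SE 0.215, adjusted p = 0.00161, edgeR). Among 9 upstream regulators of SKN-1, 2 rose and 2 fell. Of 5 vitellogenins tested 3 rose, but levels were low. The sum of all 6 was 6.29 to 8.27 CPM in N2 embryos and 5.68 to 10.1 CPM in N2 L1 larvae, which overlap. Marker genes of other tissues moved too: 7 of 9 for body wall muscle, 7 of 9 for neurons and 3 of 4 for pharynx rose, and 4 of 7 for hypodermis fell and 1 rose. Of 4 sperm genes tested 3 rose, at low levels. The sum of the 8 listed was 5.01 to 7.52 CPM in N2 embryos and 12.55 to 15.95 CPM in N2 L1 larvae. The stages also differed in how genes of different length were counted: genes over 3 kb of exon minus genes under 1 kb stood at 0.261 to 0.524 (log2, relative to the mean of the table) in N2 embryos and at -0.656 to -0.324 in N2 L1 larvae. The part of this difference in the stage changes was not tested.

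Of the same pathway lists, 0 genes passed between xnp-1 and N2 L1 larvae by edgeR (0.481% of all genes), and 1 passed in embryos (1.11% of all genes). That gene was pgp-3, an intestinal ABC transporter, at 17.04 ± 1.49 CPM in N2 and 7.78 ± 1.75 CPM in xnp-1 embryos (-1.13, SE 0.217, adjusted p = 0.024, edgeR). These counts depended on the setting. DESeq2 called 2 intestinal genes, 2 detoxification targets and 1 upstream regulator of SKN-1 lower in embryos, and 1 detoxification target lower in L1 larvae. Without replicate 1 of both L1 groups, 3 intestinal genes and 3 detoxification targets were lower in embryos by edgeR, where 519 of all genes were lower, against 121 in the main fit. The sum of the 13 maternal regulators was 2940 CPM in replicate 1 of the xnp-1 embryos, 1961 and 1903 CPM in its other replicates and 1749, 1922 and 1689 CPM in N2. The median log2 change of this list was 0.40 in embryos (0.03 over all genes), beside 0.50 for the early zygotic genes and -0.26 for the intestinal differentiation genes. In L1 larvae it was 0.44 for the maternal regulators, -0.20 for the intestinal genes and -0.64 for the detoxification targets of SKN-1 (0.01 over all genes).

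**Figure D3:**
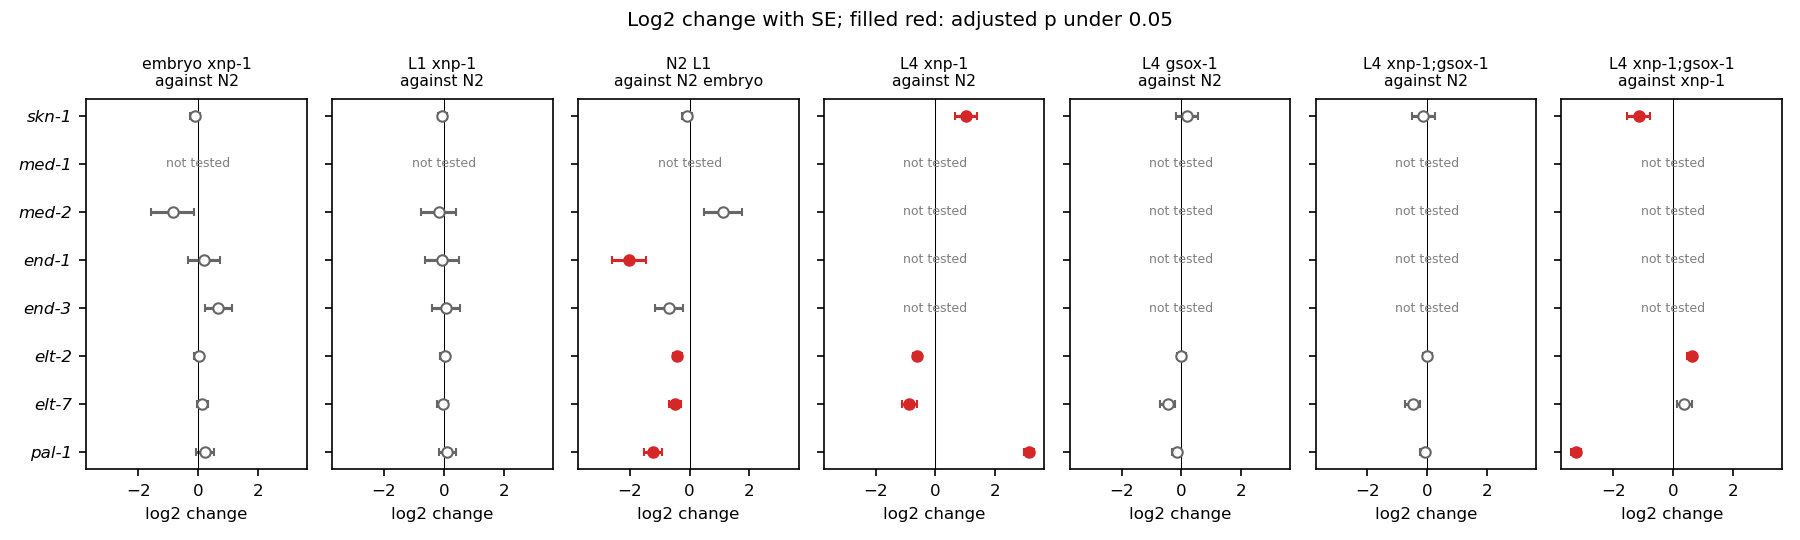
Log2 change of each regulator with its standard error (horizontal axes) in 7 comparisons of 2 groups, from edgeR fits of 3 libraries per group. Filled red points passed an adjusted p under 0.05, open points did not, and genes with too few counts are marked as not tested. None of the regulators passes in the xnp-1 comparisons of embryos and L1 larvae, while pal-1 stands at 3.14 in L4 xnp-1 larvae against N2 and at -3.23 in xnp-1;gsox-1 against xnp-1.

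At L4 the regulators were compared between xnp-1 and N2 larvae grown at 25 °C. skn-1, elt-2, elt-7 and pal-1 had enough counts to be tested and 4 of 4 passed, pal-1 and skn-1 higher and elt-2 and elt-7 lower, where 48.5% of all 17492 genes tested passed by edgeR (23.3% higher and 25.3% lower). The median log2 change over all genes was -0.16.

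pal-1 was at 11.3, 11.3 and 9.61 CPM in N2 L4 larvae and at 99.3, 82.7 and 103 CPM in xnp-1 L4 larvae. The lowest xnp-1 library stood far above the highest N2 library. The change was 8.83-fold (log2 3.14, SE 0.167, adjusted p = 2.76e-07, edgeR), larger in size than that of all but 7.87% of the genes tested.

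skn-1 was at 50.3, 116.4 and 135.9 CPM in N2 and at 180.6, 204.1 and 231.6 CPM in xnp-1 L4 larvae. The groups did not overlap, and N2 replicate 1 stood far below the other N2 libraries. The change was 2.04-fold (log2 1.03, SE 0.375, adjusted p = 0.0395, edgeR). In N2 replicate 1 and in xnp-1;gsox-1 replicate 1, long genes were counted low against short ones (-0.981 and -1.21, with -0.208 to 0.398 in the other 10 L4 libraries), and skn-1 has 2960 bases of exon. Without these libraries skn-1 rose by 0.70 (SE 0.159, adjusted p = 0.00377, edgeR), but in 5 of 6 fits that left out 1 library of the groups compared its adjusted p was 0.0592 to 0.11 (edgeR).

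elt-2 was at 47.4, 42.1 and 43.2 CPM in N2 and at 26.2, 32.4 and 27.8 CPM in xnp-1 L4 larvae, all below N2. It fell by 0.62 on the log2 scale (SE 0.145, adjusted p = 0.0041, edgeR). elt-7 was at 8.72, 16.03 and 11.1 CPM in N2 and at 5.66, 6.62 and 7.34 CPM in xnp-1 L4 larvae, again with no overlap. It fell by 0.87 (SE 0.263, adjusted p = 0.0167, edgeR), but leaving out N2 replicate 2 or xnp-1 replicate 1 ended the call (adjusted p = 0.0852 and 0.0673, edgeR).

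The early zygotic regulators were near the limit of detection at L4 in every group, including xnp-1. end-1 had 6, 6 and 6 reads in N2, 18, 2 and 2 in xnp-1, 0, 4 and 0 in xnp-1;gsox-1 and 0 in each gsox-1 library. Against a floor of 3 reads over the 3 libraries of the group (0.0245 CPM), end-1 was at least 6.01-fold lower in gsox-1 than in N2. That value rests on 18 reads and covers counting error only, and the unfiltered test of the same difference did not pass (adjusted p = 0.849, edgeR). end-3 had 5, 5 and 4 reads in N2 and 12, 6 and 8 in xnp-1. med-2 had 0, 15 and 0 reads in N2 and 7, 0 and 7 in xnp-1, and med-1 had 0, 9 and 0 in N2 and 0 in all 3 xnp-1 libraries, where the floor is 0.0243 CPM. No test was made of these genes at L4, since they did not pass the filter on low counts. Fitted without the filter, none of these 4 genes passed in xnp-1 against N2, with adjusted p of 0.155 to 1, nor in gsox-1 against N2, with adjusted p of 0.849 to 1 (edgeR).

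**Figure D4:**
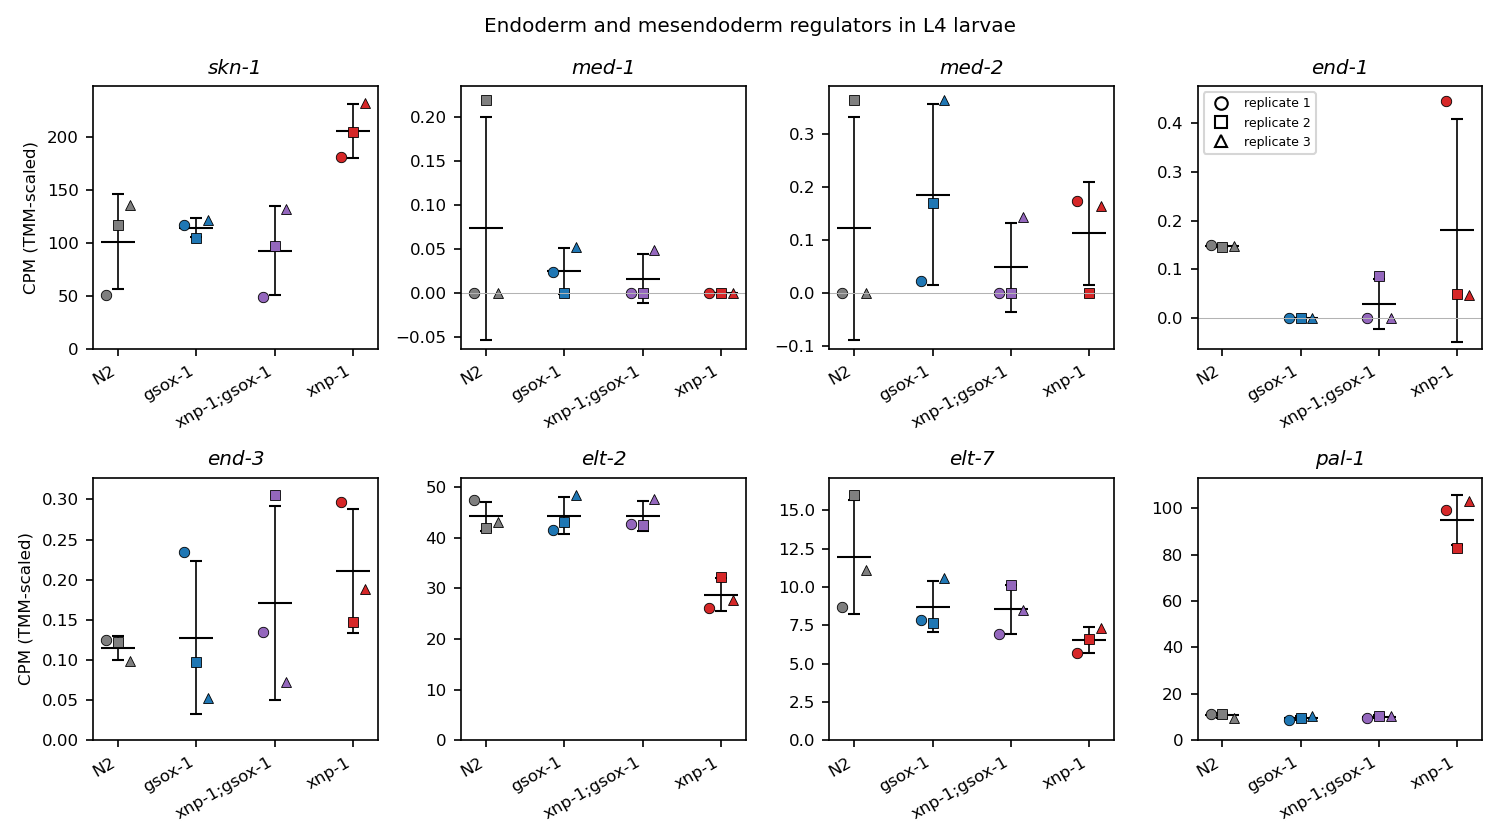
Level of each regulator in CPM (vertical axes, linear, each with its own range) in the 12 L4 libraries. Points are libraries with the replicate number as the symbol, and bars are means with SD (n = 3). pal-1 in xnp-1 larvae (82.7 to 103) stands above all other libraries (8.89 to 11.3), elt-2 in xnp-1 larvae (26.2 to 32.4) stands below them, and end-1, highest of the near-zero genes in 1 library, reaches 0.445.

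Between gsox-1 and N2 L4 larvae 0 of 4 regulators passed, where 0.0229% of all genes passed by edgeR (0.00572% higher and 0.0172% lower). At an unadjusted p under 0.05 there were 0 of 4, against 858 of all genes, and DESeq2 called 0 of 4. pal-1 was at 8.89, 9.44 and 10.6 CPM in gsox-1 (log2 change -0.16, SE 0.155) and elt-2 at 41.5, 43.1 and 48.5 CPM (0.01, SE 0.145), both overlapping with N2. skn-1 was at 116.7, 104.7 and 121.3 CPM (0.18, SE 0.371) and elt-7 at 7.84, 7.67 and 10.6 CPM (-0.46, SE 0.261), also overlapping.

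In the xnp-1;gsox-1 group 0 of 4 regulators passed against N2, where 1.04% of all genes passed by edgeR (0.429% higher and 0.612% lower). At an unadjusted p under 0.05 there were 0 of 4, against 2276 of all genes, and DESeq2 called 0 of 4. pal-1 was at 9.41, 10.6 and 10.4 CPM, within the range of N2 but for its lowest library (-0.09, SE 0.155). skn-1 was at 48.6, 97.1 and 131.9 CPM (-0.13, SE 0.371), elt-2 at 42.7, 42.6 and 47.7 CPM (0.00, SE 0.145) and elt-7 at 6.94, 10.1 and 8.53 CPM (-0.49, SE 0.261). xnp-1 itself was 29.3 ± 7.64 CPM in this group, lower than in N2 (-1.36, SE 0.209, adjusted p = 0.0124, edgeR).

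Set against xnp-1 alone, xnp-1;gsox-1 larvae differed in 3 of 4 regulators, where 44.2% of all genes passed by edgeR (22.3% higher and 21.9% lower). pal-1 was 9.37-fold lower (-3.23, SE 0.167, adjusted p = 3.26e-07), skn-1 was lower by 1.15 on the log2 scale (SE 0.376, adjusted p = 0.0266) and elt-2 was higher by 0.62 (SE 0.145, adjusted p = 0.00452, edgeR), each with no overlap of libraries. The skn-1 call was lost in 4 of 6 fits that left out 1 library (adjusted p 0.0581 to 0.0808, edgeR) and held without both libraries in which long genes were low (-0.84, adjusted p = 0.00151, edgeR). elt-7 changed by 0.38 (SE 0.262) and did not pass. This comparison shares the xnp-1 libraries with that of xnp-1 and N2, so the opposite signs in both are not independent.

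Whether the effect of xnp-1 differed between the N2 and gsox-1 backgrounds was tested as an interaction, a test added after the data had been seen. 2 of 4 regulators passed, where 33.3% of all genes passed by edgeR (17.2% higher and 16.1% lower): pal-1 at -3.07 (SE 0.224, adjusted p = 1.28e-05) and elt-2 at 0.62 (SE 0.205, adjusted p = 0.0361). skn-1 (-1.33, SE 0.527, adjusted p = 0.0713) and elt-7 (0.84, SE 0.37, adjusted p = 0.0988) did not pass by edgeR. The elt-2 call was lost without the filter on low counts (adjusted p = 0.111) and in 9 of 12 fits that left out 1 library (adjusted p 0.052 to 0.105, edgeR). With the replicate number as a block skn-1 passed as well (-1.55, SE 0.4, adjusted p = 0.013, edgeR). Without both libraries in which long genes were low all 4 passed, skn-1 at -0.70 (adjusted p = 0.0313) and elt-7 at 1.16 (adjusted p = 0.0199, edgeR). How many of all genes passed the interaction in these altered fits was not counted. In L4 xnp-1 against N2 the same omission of libraries raised the genes called from 8492 to 9943.

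The maternal genes that act around skn-1 and pal-1 rose with them in L4 xnp-1 larvae: 12 of 13 maternal regulators of blastomere fate were higher than in N2 and 0 lower. Of all genes 23.3% were higher and 25.3% lower. The median log2 change of the list was 3.79, against -0.16 over all genes. pos-1 went from 8.66 ± 4.46 to 431.9 ± 60.5 CPM (5.64, SE 0.408, adjusted p = 2.18e-06, edgeR), and spn-4, an RNA-binding protein that acts on maternal mRNAs, from 31.5 ± 7.71 to 476 ± 43.7 CPM (3.92, SE 0.309, adjusted p = 3.53e-06, edgeR). In xnp-1;gsox-1 larvae the level of pos-1 was 7.75 ± 1.88 CPM and that of spn-4 was 30.2 ± 11.5 CPM, both overlapping with N2. Against xnp-1 alone, 12 of 13 were lower in xnp-1;gsox-1, where 21.9% of all genes were lower.

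Of 16 genes of the Wnt, MAPK and Src inputs to endoderm, 12 rose and 1 fell in L4 xnp-1 larvae (median 1.68). Of all genes 23.3% were higher and 25.3% lower. mom-2, the Wnt ligand that signals to the endoderm precursor, went from 9.02 ± 0.26 to 77.1 ± 7.36 CPM (3.10, SE 0.186, adjusted p = 7.44e-07, edgeR). The Dishevelled genes dsh-2 (2.28, SE 0.191, adjusted p = 4.94e-06) and mig-5 (2.05, SE 0.178, adjusted p = 5.85e-06, edgeR) also rose. tap-1 was the gene that fell (-0.70, SE 0.197, adjusted p = 0.0117, edgeR), and it is named here after its value was seen. The levels in xnp-1;gsox-1 larvae were 9.52 ± 1.00 CPM for mom-2 and 18.8 ± 3.52 CPM for dsh-2, against 16.95 ± 1.56 CPM in N2 for the latter.

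Most mesoderm, C-lineage and intestinal differentiation genes did not pass in the main fit, but most had log2 changes below 0. Above 0 were 3 of the 13 mesoderm and C-lineage targets tested and 5 of the 20 intestinal genes. Of 17 mesoderm and C-lineage targets of MED and PAL-1, 13 had enough counts at L4, of which 2 were higher and 2 lower in xnp-1 (median -0.45 against -0.16 over all genes). Without both libraries in which long genes were low, 6 were lower, where 5169 of all genes were lower, against 4421 in the main fit. The T-box gene tbx-9, a PAL-1 target, was at 0, 0.20 and 0 CPM in N2 and at 15.1, 10.8 and 15.5 CPM in xnp-1 larvae (7.65, SE 0.859, adjusted p = 3.24e-05, edgeR). hnd-1, a bHLH factor of early mesoderm, had 0 reads in all 3 N2 libraries and 0.99, 0.84 and 1.32 CPM in xnp-1, at least 42.6-fold higher against the floor of 3 reads over the group. Both tbx-9 and hnd-1 were at or near 0 in N2, so they could only come out as higher. The count of 2 higher is thus partly fixed by the filter on low counts. unc-120, a muscle factor, was lower (-0.52, SE 0.155, adjusted p = 0.015, edgeR). tbx-35, the direct MED target in mesoderm, had 0 reads in N2 and was at 0, 0 and 0.09 CPM in xnp-1 larvae, and is named for its role.

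Of 20 intestinal differentiation genes, 6 were lower and 0 higher in L4 xnp-1 larvae, with a median of -0.45, a share not far from the 25.3% of all genes that were lower. ges-1, an intestinal esterase and a classic ELT-2 target, was at 72.8, 59.7 and 63.75 CPM in N2 and at 25.9, 25.4 and 25.4 CPM in xnp-1 larvae (-1.36, SE 0.144, adjusted p = 2.05e-05, edgeR). In xnp-1;gsox-1 larvae ges-1 was at 66.2, 58.6 and 58.3 CPM, near N2. Of the whole list, 4 of 20 were higher and 0 lower in xnp-1;gsox-1 than in xnp-1 (median 0.03), where 22.3% of all genes were higher. The list summed to 4777 to 6996 CPM in N2, 4565 to 4703 CPM in xnp-1 and 3341 to 5580 CPM in xnp-1;gsox-1 larvae. ftn-1 fell by 2.59 (SE 0.455, adjusted p = 0.000665) and nhx-2, a sodium-proton exchanger of the gut, by 0.51 (SE 0.156, adjusted p = 0.0177, edgeR). Without both libraries in which long genes were low, 11 of 20 were lower and 0 higher, where 5169 of all genes were lower, against 4421 in the main fit. With library totals as the scale 4 were lower, 0 higher, where 4050 of all genes were lower.

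The yolk protein genes, which ELT-2 also drives in the adult intestine, went the other way. All 6 vitellogenins were higher in L4 xnp-1 larvae than in N2, where 23.3% of all genes were higher, with a median log2 change of 6.23. vit-2 was at 9.72, 172.9 and 101.2 CPM in N2, 5382, 8156 and 10290 CPM in xnp-1 and 2.37, 5.29 and 3.13 CPM in xnp-1;gsox-1 larvae. The N2 libraries spread widely, and yet the xnp-1 libraries lay above and the xnp-1;gsox-1 libraries below all of them (vit-2 6.39, SE 1.06, adjusted p = 0.000454, and -4.72, SE 0.988, adjusted p = 0.0477, edgeR).

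Of the 9 detoxification targets of SKN-1, 3 rose and 2 fell in L4 xnp-1 larvae, and of its 9 upstream regulators 3 rose and 2 fell, shares near the 23.3% and 25.3% of all genes. gst-30 went from 0.16 ± 0.06 to 1.66 ± 0.50 CPM (3.32, SE 0.531, adjusted p = 0.00034) and ugt-11 rose by 2.01 (SE 0.498, adjusted p = 0.00581, edgeR), while gst-10 went from 287.8 ± 136 to 71.45 ± 8.56 CPM (-2.01, SE 0.364, adjusted p = 0.000812, edgeR). gst-4, the target most used as a reporter, was at 54.5 ± 21.4 and 31.75 ± 9.90 CPM and did not pass (-0.78, SE 0.372). Among the upstream regulators that rose were wdr-23, which marks SKN-1 for degradation (1.02, SE 0.224, adjusted p = 0.00279), and xrep-4 (1.52, SE 0.156, adjusted p = 1.58e-05, edgeR). Of the 5 other GATA factors 1 rose, the epidermal gene egl-18, from 8.37 ± 3.81 to 22.25 ± 1.96 CPM (1.41, SE 0.32, adjusted p = 0.00349, edgeR).

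Markers of several other tissues and stages moved in the same L4 comparison, where 23.3% of all genes were higher and 25.3% lower. All 13 oocyte and eggshell genes were higher in xnp-1 larvae, with a summed level of 6144 to 7648 CPM against 173.8 to 388.7 CPM in N2 and 144.3 to 329.8 CPM in xnp-1;gsox-1. This list shares oma-1 and oma-2 with the maternal regulators. Of 18 early zygotic genes 9 had enough counts to be tested, and 6 of these were higher. The sum of all 18 went from 3.21 to 4.36 CPM in N2 to 31 to 44.0 CPM in xnp-1, while sdz-23 and tbx-40 had 0 reads in both groups. lsy-27 had 0 reads in N2 and 18.02 ± 1.73 CPM in xnp-1 larvae, at least 732-fold higher against the same floor. It was at 0.0485 CPM in gsox-1 and 0.206 CPM in xnp-1;gsox-1 larvae, so it entered the test through the xnp-1 libraries. With 0 reads in N2 it could only come out as higher. Of 7 hypodermis genes 6 were lower, with a sum of 208.8 to 528.6 CPM against 6126 to 6619 CPM. The other, lin-26, did not pass (0.39, SE 0.384, adjusted p = 0.429, edgeR), and it is named after its value was seen. Of 8 sperm genes 5 were lower, with sums of 74.2 to 114.3 CPM in xnp-1 and 122.3 to 257.4 CPM in N2. Of 9 muscle genes 3 were lower, or 5 without both libraries in which long genes were low, where 5169 of all genes were lower, against 4421 in the main fit. Of 4 pharynx genes 1 was lower and of 9 neuron genes 5 were lower and 1 higher. In the main fit the shares of muscle and pharynx genes that were lower were near that of all genes. The part of a different stage or share of germline in the values of pal-1, skn-1, elt-2 and elt-7 was not tested.

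**Figure D5:**
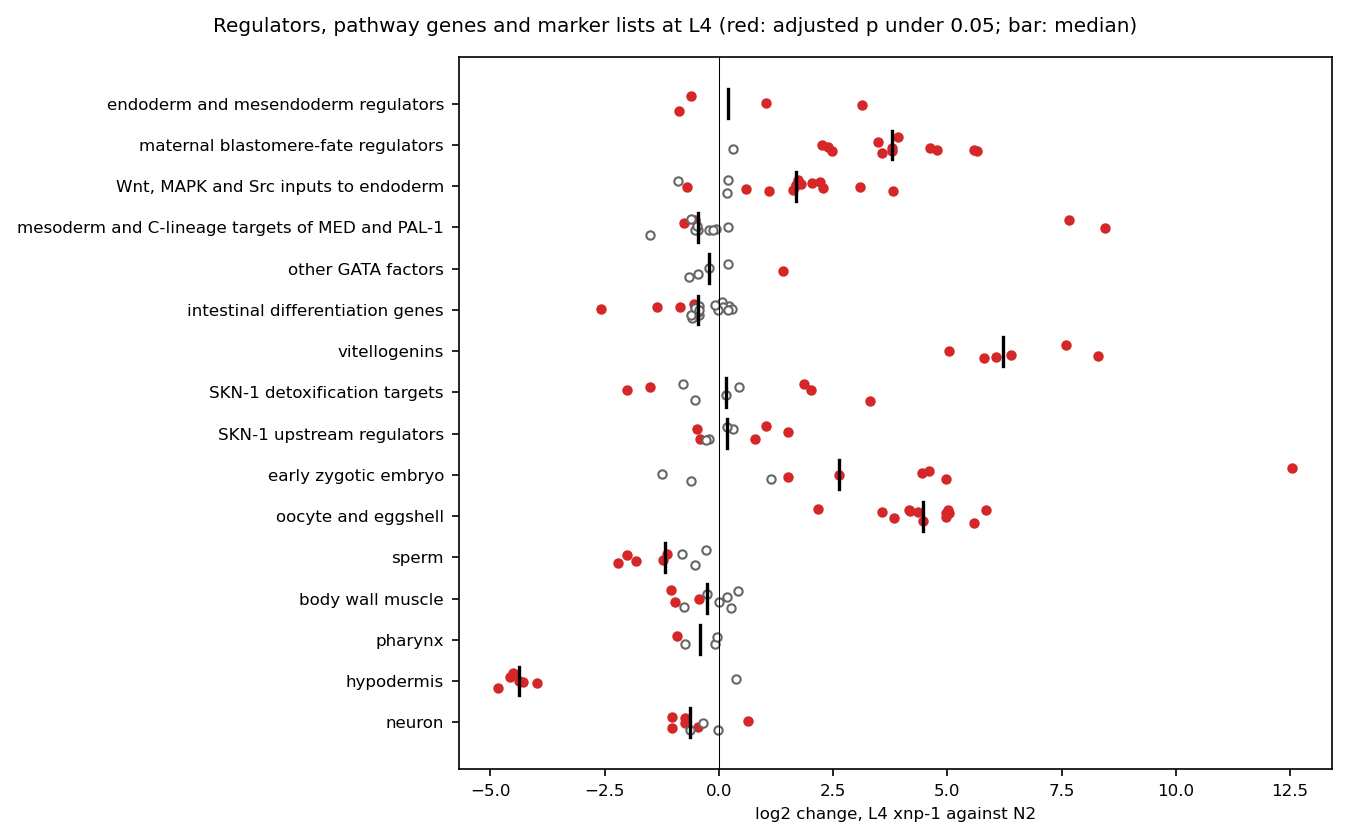
Log2 change in L4 xnp-1 larvae against N2 (horizontal axis) of the regulators and of every tested gene of the pathway and marker lists (one line per list). Red points passed an adjusted p under 0.05 in edgeR, open points did not, and the black bar is the median of the list. Maternal regulators (median 3.79), oocyte genes (4.48) and vitellogenins (6.23) lie to the right, hypodermis genes (-4.39) to the left, and intestinal differentiation genes (-0.45) near 0. For genes with 0 reads in N2, such as lsy-27 and hnd-1, the plotted fitted value depends on the prior count.

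The genes whose pattern was most like that of each regulator were found by the Pearson correlation of log2 CPM over libraries, averaged over the tables in which the regulator passed the filter. The libraries share their groups, so the values are descriptions. pal-1 was most like gln-6 and hcp-3 (mean r 0.996 for both, over 24 libraries), and hcp-3 encodes the centromeric histone. elt-2 was most like idh-2 (0.94) and rml-3 (0.934), elt-7 like acp-2 (0.897) and spe-18 (0.881), and skn-1 like atfs-1 (0.887) and atf-7 (0.885). Over the 12 embryo and L1 libraries, end-1 was most like sdz-5 and fbxb-42 (r 0.994 for both), end-3 like sgo-1 (0.967) and clec-171 (0.966), and med-2 like cpr-8 (0.945) and dmsr-4 (0.91).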

How the data were processed

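Poly(A) RNA libraries of whole C. elegans were analysed, 24 in 8 groups. The small RNA libraries and their table were not used here. The deposited values are unnormalized counts per gene of the WS280 annotation. As recorded per the file headers, fragments were counted with featureCounts 2.0.1 in embryos and L1 larvae and reads with featureCounts 2.0.6 at L4, both strand-specific with a mapping quality of at least 10 and without reads that map to several places. Per the submitters' processing notes, FastQC, Trim Galore, STAR and SAMtools came before. Symbols were matched by gene ID for 44114 of 46926 genes.

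Each table was tested in R 4.3.3 by the robust, two-sided quasi-likelihood test of edgeR 4.0.16, with 4 groups in 1 design, TMM scaling and the filter filterByExpr. P-values were adjusted by Benjamini-Hochberg over all genes passing the filter, with a threshold of 0.05. They measure the spread between libraries labelled biological replicates, whose cultures are not described. Alternatives were DESeq2 1.42.0, library totals, no filter, a replicate block, the groups compared alone and leaving out libraries. On simulated data DESeq2 made more false calls than edgeR. The simulation gave all genes the same spread, so it cannot show which test is nearer the truth here. Larger counts by DESeq2 were not read as greater sensitivity. The limit accepted for DESeq2 in that check was widened after its result was seen.

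Deviations of same-numbered libraries from their group means correlated in L1 xnp-1 against N2 (0.768, 0.478 and 0.693) and xnp-1;gsox-1 against N2 (0.501, 0.288 and 0.369). The correlations were weaker in L4 xnp-1 against N2 (0.209, 0.141 and 0.135) and xnp-1;gsox-1 against xnp-1 (0.24, 0.116 and 0.128). The main tests did not pair libraries by number. Only the replicate block, an alternative, used the numbers. No columns of any table agreed in all values. A group with 0 counts was set against a floor of 3 counts over its libraries, which covers counting error only. The regulators and lists were chosen with earlier results of these data known. Named beside the regulators, xnp-1 and gsox-1 are up to 3 called genes per list and comparison with the smallest adjusted p, and for each regulator the 2 genes most like it. Genes named outside that rule are marked or named for their role.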

Additional observations from a re-analysis of the deposited data

Results flagged for a closer look

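2 results differed between groups under the same contrast, the effect of xnp-1 in the N2 and in the gsox-1 background at L4, by a test of the interaction added after the data had been seen. For pal-1 the interaction was -3.07 (log2, SE 0.224, adjusted p = 1.28e-05, edgeR): all 3 xnp-1 libraries stood at 82.7 to 103 CPM and the 9 other L4 libraries at 8.89 to 11.3 CPM. It kept its direction and its call in every alternative run. For elt-2 the interaction was 0.62 (SE 0.205, adjusted p = 0.0361, edgeR), with the xnp-1 libraries at 26.2 to 32.4 CPM and the 9 others at 41.5 to 48.5 CPM. Its adjusted p was 0.111 without the filter on low counts and 0.052 to 0.105 in the 9 fits without 1 library that lost the call (edgeR).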

How the results depend on the processing

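Each regulator was recomputed under every alternative; those that drop L1 replicates 1 together, drop N2 replicate 1 with double mutant replicate 1 at L4, or join the block with only the groups compared were added after seeing the data. The pal-1 and elt-2 calls at L4 against N2 and against xnp-1 held throughout. Regulators called from N2 embryos to L1 larvae were 2 by library totals, without the filter, with only the groups compared, with or without the replicate block, and without L1 replicates 1. Leaving out 1 library gave 2 to 4 regulators called in that comparison and 2 to 4 in L4 xnp-1 against N2. The block changed no call of a regulator apart from skn-1 in the interaction (-1.551) and, with only the groups compared, those of N2 L1 larvae.

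Uncalled changes near 0 turned sign in some settings, and the cause was not tested. By library totals, elt-2 was -0.025 in embryos, skn-1 0.001 and elt-7 0.005 in L1 larvae, skn-1 0.002 between N2 stages, and pal-1 0.004 in double mutants against N2. elt-2 in the stage difference was -0.035 by DESeq2, -0.014 without the filter and -0.114 without L1 replicates 1, where elt-2 was -0.091 and elt-7 0.015 in L1 larvae. elt-2 in gsox-1 against N2 was -0.042 without the filter, -0.046 with only the groups compared and -0.045 with the block as well. Without N2 replicate 1 and double mutant replicate 1, skn-1 was -0.142 in gsox-1 and pal-1 0.006 in double mutants against N2.

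Leaving out 1 library gave these ranges. In embryos: skn-1 -0.163 to 0.047, end-1 -0.07 to 0.447, elt-2 -0.032 to 0.111, elt-7 -0.014 to 0.261 and pal-1 -0.101 to 0.429. In L1 larvae: skn-1 -0.14 to 0.07, med-2 -0.729 to 0.133, end-1 -0.689 to 0.42, end-3 -0.36 to 0.356, elt-2 -0.06 to 0.142 (-0.091 at the lowest with L1 replicates 1 left out together), elt-7 -0.198 to 0.055 and pal-1 -0.152 to 0.351. In the stage difference: skn-1 -0.09 to 0.151, end-1 -0.903 to 0.206, elt-2 -0.098 to 0.121 and pal-1 -0.395 to 0.215. skn-1 between N2 stages ran from -0.224 to 0.035. In gsox-1: skn-1 -0.143 to 0.456 and elt-2 -0.064 to 0.058. In double mutants against N2: skn-1 -0.449 to 0.182, elt-2 -0.033 to 0.055 (0.083 without both libraries named above) and pal-1 -0.161 to -0.034 (0.006 without both).

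Counts over all genes moved more. Embryos had 197 genes called, 591 by DESeq2, 337 with the block, 580 with only the groups compared, 676 with both, 674 without L1 replicates 1 and as few as 53 without 1 library. L1 larvae had 85, 234 by DESeq2, 13 with only the groups compared and 2002 (610 higher, 1392 lower) with the block as well, and as few as 35 without 1 library. gsox-1 had 4, 60 by DESeq2, 2 with the block, 1 with only the groups compared, 0 with both and 14 without the 2 libraries named. Double mutants against N2 had 182, 847 by DESeq2, 1 with only the groups compared, 1637 with the block as well and as few as 44 without 1 library. Scaling by totals moved the median of all genes from 0.10 to 0.19 between N2 stages. Correlations of same-numbered libraries were 0.0301, 0.0633 and -0.051 in embryos and -0.0716, -0.368 and -0.233 in gsox-1 against N2. Between N2 stages they were 0.246, 0.0807 and 0.154, near those of L4 xnp-1 against N2. What libraries of equal number share is not described. Low counts limit med-1, med-2, end-1 and end-3.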
